A study of Mus musculus with 9 samples.

Results

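The 6 genes Tecta, Tectb, Otog, Otogl, Otoa and Strc, which encode proteins of the tectorial membrane and other otic matrices, were described by the accessible chromatin regions nearest to them in cells of the embryonic mouse cochlear duct. Each peak of 9 ATAC-seq peak lists was given to the gene whose protein-coding start site lay nearest to its summit, within 500 kb (mm9, GENCODE vM1), and peaks of all lists within 100 bp were merged into regions. By this rule 91 of 286921 peaks, in 27 of 69415 regions, belonged to the 6 genes. None of the 27 regions held a peak nearest to another gene.

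ATAC-seq marks open chromatin by where a transposase inserts sequencing adapters. All embryos were of the strain B6;129S-Sox2tm2Hoch/J, in which EGFP is knocked into Sox2. The study describes heterozygotes for its imaging and picked embryos by their EGFP fluorescence, so every sample carried at least 1 altered Sox2 allele. Cochlear ducts of 1 litter were pooled for each Sox2-EGFP+ replicate and sorted for high EGFP (Sox2-EGFP+) or lack of it (Sox2-EGFP-), and cells with low EGFP were left out by the gate. There were 2 samples each of E12, E14.5 and E16 Sox2-EGFP+ cells, 1 of E14.5 Sox2-EGFP- cells and 2 of E16 Sox2-EGFP- cells. E12 had no Sox2-EGFP- sample. Groups follow the sample titles; a separate cell type tag gives the opposite sign for E16 Sox2-EGFP+ replicate 2 and for both E16 Sox2-EGFP- replicates. By the titles, the promoters of the epithelial genes Cdh1 and Grhl2 had a peak in 6 of 6 Sox2-EGFP+ and 0 of 3 Sox2-EGFP- samples and that of Epcam in 5 and 3; of the mesenchymal genes, Prrx1 had 0 and 3, Tbx18 2 and 3, Pou3f4 3 and 3 and Twist1 5 and 3. Cdh1, Grhl2 and Prrx1, the promoters that divide the samples by title, were singled out after their values were seen. Each sample with a contradicted tag sat there with the group of its title. That was fixed by the choice of promoters, so it does not decide between title and tag. The other 4 promoters do not divide the samples.

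The lists hold peaks and no reads, and the numbers of reads that the study tabulates for its samples were not used. The lists differed in length: 13817 and 7577 peaks at E12, 66332 and 22962 in E14.5 Sox2-EGFP+ cells, 39314 and 65870 in E16 Sox2-EGFP+ cells, 23302 in E14.5 Sox2-EGFP- cells, and 23848 and 23899 in E16 Sox2-EGFP- cells, each pair in the order of replicates 1 and 2. The authors kept those peaks that a further sample of the cell type also showed, and there were 6 samples of one type and 3 of the other. Presence of a peak therefore depends on list length and on the number of samples, and shares over all regions are given beside the counts for the 6 genes where they were computed.

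The tectorial membrane is an acellular gel over the organ of Corti that couples sound-driven motion to the hair bundles. Its collagen fibrils run through a striated-sheet matrix made largely of the tectorins, and the embryonic floor of the cochlear duct secretes it. Otogelin and otogelin-like are large glycoproteins of the acellular membranes of the inner ear, otoancorin lies where such gels attach to the epithelium, and stereocilin joins the tallest stereocilia of outer hair cells to each other and to the tectorial membrane. Loss of any of these 6 proteins is a known cause of hearing impairment in mice or humans.

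Sequences of the regions that the account turns on come from the plus strand of mm9, and are printed 5′ to 3′ for the window around the best ranked summit of the region with peaks in the most samples of each gene and of each region over a promoter. They lie at chr9:42234912-42235112 (Tecta), chr19:55235918-55236118 (Tectb), chr7:53496108-53496308 (Otog), chr10:107346875-107347075 and chr10:107349323-107349523 (Otogl), chr7:128228960-128229160 (Otoa), and chr2:121222448-121222648 and chr2:121206677-121206810 (Strc), the last beginning next to the Strc start site and running upstream of this minus-strand gene. Capitals mark matches to the motif letters given further on.
Tecta, 27.0 kb upstream: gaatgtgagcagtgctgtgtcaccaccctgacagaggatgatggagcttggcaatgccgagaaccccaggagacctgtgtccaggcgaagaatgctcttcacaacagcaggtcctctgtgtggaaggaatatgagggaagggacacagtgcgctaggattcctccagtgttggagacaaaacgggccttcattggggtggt
Tectb, 19.2 kb upstream: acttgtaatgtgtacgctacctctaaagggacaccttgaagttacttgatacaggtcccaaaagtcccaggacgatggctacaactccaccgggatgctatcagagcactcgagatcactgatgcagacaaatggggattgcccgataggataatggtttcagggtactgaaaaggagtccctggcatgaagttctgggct
Otog promoter: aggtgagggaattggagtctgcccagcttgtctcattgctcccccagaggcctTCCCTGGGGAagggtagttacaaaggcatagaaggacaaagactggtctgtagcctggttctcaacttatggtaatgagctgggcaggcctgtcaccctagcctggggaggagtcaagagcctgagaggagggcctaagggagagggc
Otogl, 2.2 kb downstream: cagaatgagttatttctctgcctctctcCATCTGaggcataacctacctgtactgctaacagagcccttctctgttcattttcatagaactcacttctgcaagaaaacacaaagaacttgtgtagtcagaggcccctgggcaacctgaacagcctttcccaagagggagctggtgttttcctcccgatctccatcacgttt
Otogl promoter: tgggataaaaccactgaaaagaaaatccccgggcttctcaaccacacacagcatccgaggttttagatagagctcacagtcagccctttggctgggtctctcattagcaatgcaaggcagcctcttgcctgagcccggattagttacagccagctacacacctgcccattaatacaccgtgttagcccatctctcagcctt
Otoa, 2.1 kb downstream: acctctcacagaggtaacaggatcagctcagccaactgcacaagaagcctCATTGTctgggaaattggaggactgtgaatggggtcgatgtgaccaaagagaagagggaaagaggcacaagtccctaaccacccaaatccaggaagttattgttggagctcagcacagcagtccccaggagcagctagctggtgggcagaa
Strc, 15.9 kb upstream: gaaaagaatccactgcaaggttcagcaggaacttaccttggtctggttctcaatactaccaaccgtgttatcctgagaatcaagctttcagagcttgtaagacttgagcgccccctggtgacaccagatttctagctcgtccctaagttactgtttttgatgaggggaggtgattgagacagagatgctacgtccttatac
Strc promoter: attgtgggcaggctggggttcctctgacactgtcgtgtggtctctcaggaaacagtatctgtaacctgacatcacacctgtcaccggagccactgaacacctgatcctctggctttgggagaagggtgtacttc

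Which cell type had open chromatin at the 6 genes was asked first. Of the 27 regions, 22 (81.5%) had peaks of Sox2-EGFP+ cells alone, against 65.5% of all regions. Another 4 regions (14.8%) had peaks of both cell types, against 28.8%, and 1 region (3.7%) had Sox2-EGFP- peaks alone, against 5.63%. The regions with a Sox2-EGFP- peak belonged to Otoa (3), Otogl (1) and Tecta (1), whereas Tectb, Otog and Strc had none.

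The background depends on promoters. A region over a protein-coding promoter (from 1000 bp before to 100 bp after a GENCODE start site) was mostly open in both cell types, and 16.8% of 14728 such regions had Sox2-EGFP+ peaks alone. Away from promoters the share over the genome was 78.7%, and 19 of the 24 regions of the 6 genes there (79.2%) were of this kind, which is close to that background. At promoters, the 3 regions of the 6 genes (Otog, Otogl and Strc) all had Sox2-EGFP+ peaks and no Sox2-EGFP- peak. The Otogl and Strc promoter peaks lay at places 28930.5 to 66103.5 of their lists. The Sox2-EGFP- lists ended at 23302 to 23899 peaks. For Otogl and Strc the lack of a Sox2-EGFP- peak can thus not be told apart from list length. The Otog promoter peaks lay at places 2034 to 12438. This division of the background was chosen after the values were seen.

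**Figure D1:**
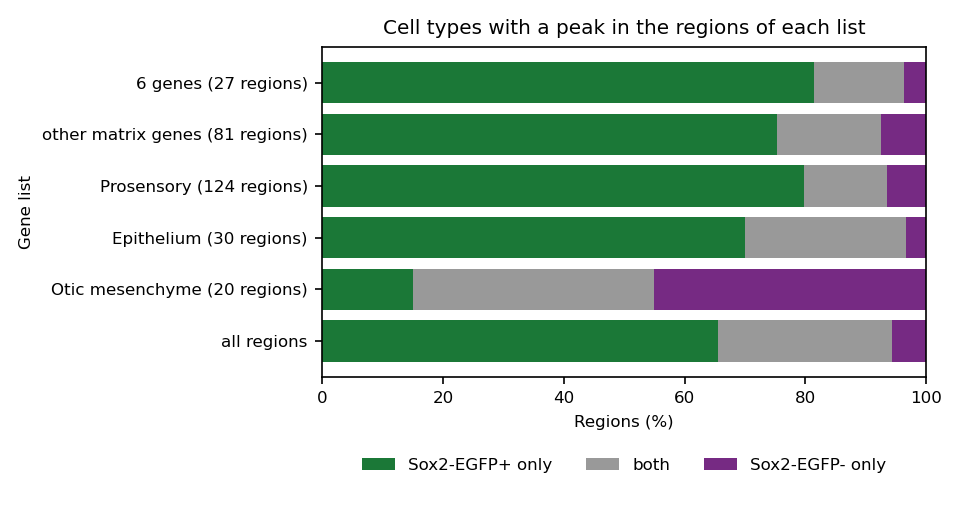
Share of regions (%, x axis) with peaks in Sox2-EGFP+ samples alone, in both cell types or in Sox2-EGFP- samples alone, for the 6 genes, 4 other gene lists and all regions. The green part is 81.5% for the 6 genes, 75.3% for the other matrix genes, 15.0% for the otic mesenchyme genes and 65.5% for all regions.

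Sample by sample, the regions of the 6 genes followed list length in Sox2-EGFP+ cells. E12 replicates 1 and 2 had a peak in 4 and 3 of the 27 regions, E14.5 replicates in 25 and 8, and E16 replicates in 14 and 24. These are 14.8%, 11.1%, 92.6%, 29.6%, 51.9% and 88.9% of the regions, beside 18.1%, 10.4%, 93.9%, 30.3%, 53.6% and 89.7% of all regions in the same samples. In Sox2-EGFP- cells the counts were 3 at E14.5 and 5 and 4 at E16, or 11.1%, 18.5% and 14.8%, below the 30.9%, 32.3% and 31.4% of all regions. Against all regions away from promoters, the Sox2-EGFP- samples had 17.5%, 18.9% and 18.1%, nearer to the 12.5%, 20.8% and 16.7% of the 24 regions of the 6 genes that lie there.

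**Figure D2:**
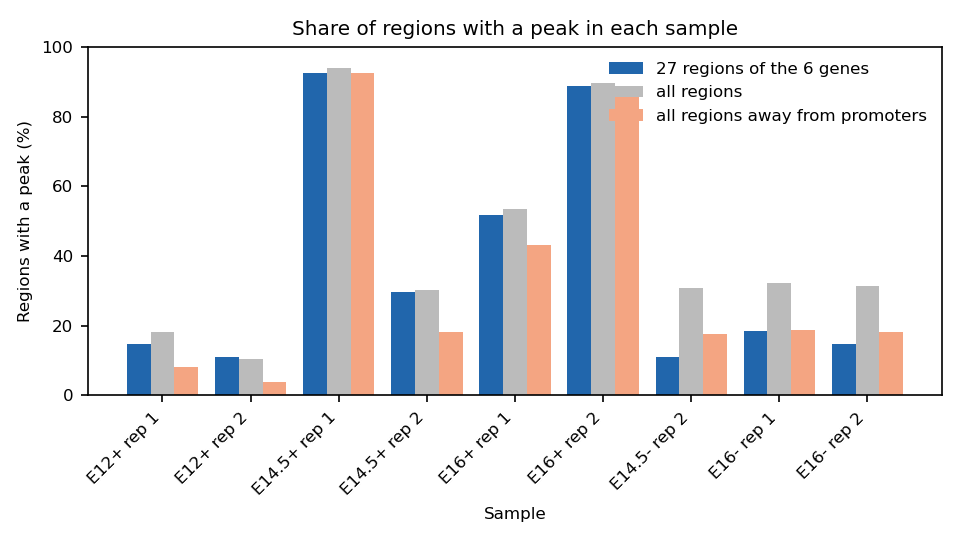
Regions with a peak (%, y axis) in each of the 9 samples (x axis), for the 27 regions of the 6 genes, all 69415 regions and all 54687 regions away from promoters. Blue and grey bars lie close together in the 6 Sox2-EGFP+ samples, as in 92.6% and 93.9% for E14.5 replicate 1, and apart in the 3 Sox2-EGFP- samples. There the bars for regions away from promoters, at 17.5%, 18.9% and 18.1%, lie nearer to the blue bars, at 11.1%, 18.5% and 14.8%.

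The cell types were compared region by region with Fisher's exact test of samples with and without a peak, at E14.5 and E16, where both types were collected (4 Sox2-EGFP+ against 3 Sox2-EGFP- samples). In 5 regions all 4 Sox2-EGFP+ samples and none of the 3 Sox2-EGFP- samples had a peak (18.5% of 27), against 7.33% of all regions tested; away from promoters it was 4 of 24, against 8.41%. They were the Tecta regions 27.0 kb and 1.7 kb upstream, the Otog promoter, the Otogl region 2.2 kb downstream and the Otoa region 77.0 kb downstream. The Tecta region 1.7 kb upstream counts as away from promoters by GENCODE, though a RefSeq start site of Tecta lies inside it. In 1 region, 36.9 kb downstream of a Tecta start site, the reverse held, against 2.34% of all regions. For each of these 6 regions the two-sided exact p was 0.0286, the smallest that 4 against 3 samples allow, and 0.295 after Benjamini-Hochberg adjustment over 69412 regions, so that 0 regions of the genome passed at 0.05 after adjustment. The filter for peaks shared within a cell type ties the samples of a type together. A Sox2-EGFP+ peak could also be kept through an E12 sample, and a Sox2-EGFP- peak had fewer samples to be shared with. The exact test takes no account of this, so its p is only a description of how the samples split. Exchanging labels only within samples of the same stage and number (the replicate block) gave a smallest exact p of 0.25 and 0 calls, and leaving out any E14.5 or E16 sample also gave 0 calls, since fewer samples allow no p under 0.05.

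With the E12 samples added (6 against 3), 3 regions were called by the exact test at an unadjusted p under 0.05 with more Sox2-EGFP+ samples, against 2.74% of all regions: the Otog promoter (exact p = 0.0119), and the Tecta region 27.0 kb upstream and the Otogl region 2.2 kb downstream (exact p = 0.0476 each). In the other direction 1 was called, the Tecta region 36.9 kb downstream (0 of 6 against 3 of 3, exact p = 0.0119), against 2.34% of all regions. The added E12 samples were all Sox2-EGFP+, so cell type and stage cannot be told apart in the 6 against 3 comparison. Its p values are not adjusted. With every list reduced to its 7577 highest peaks by column 8, the -log10 p of the peak caller, 6 regions of the 6 genes were left, all with Sox2-EGFP+ peaks alone, against 34.6% of all regions so reduced. Of these 6, 5 lay away from promoters, where the share over the genome was 64.4%. A single E12 list alone held 3 of the 6, all away from promoters, against 11.6% of all regions so reduced and 23.3% of those away from promoters: replicate 2, whose list is the shortest and lost no peak, the Tectb region 19.2 kb and the Otogl region 64.8 kb upstream, and replicate 1 the Otoa region 2.1 kb downstream. Both Sox2-EGFP- replicates of E16 and the E14.5 sample then held 0 peaks of the 6 genes.

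**Figure D3:**
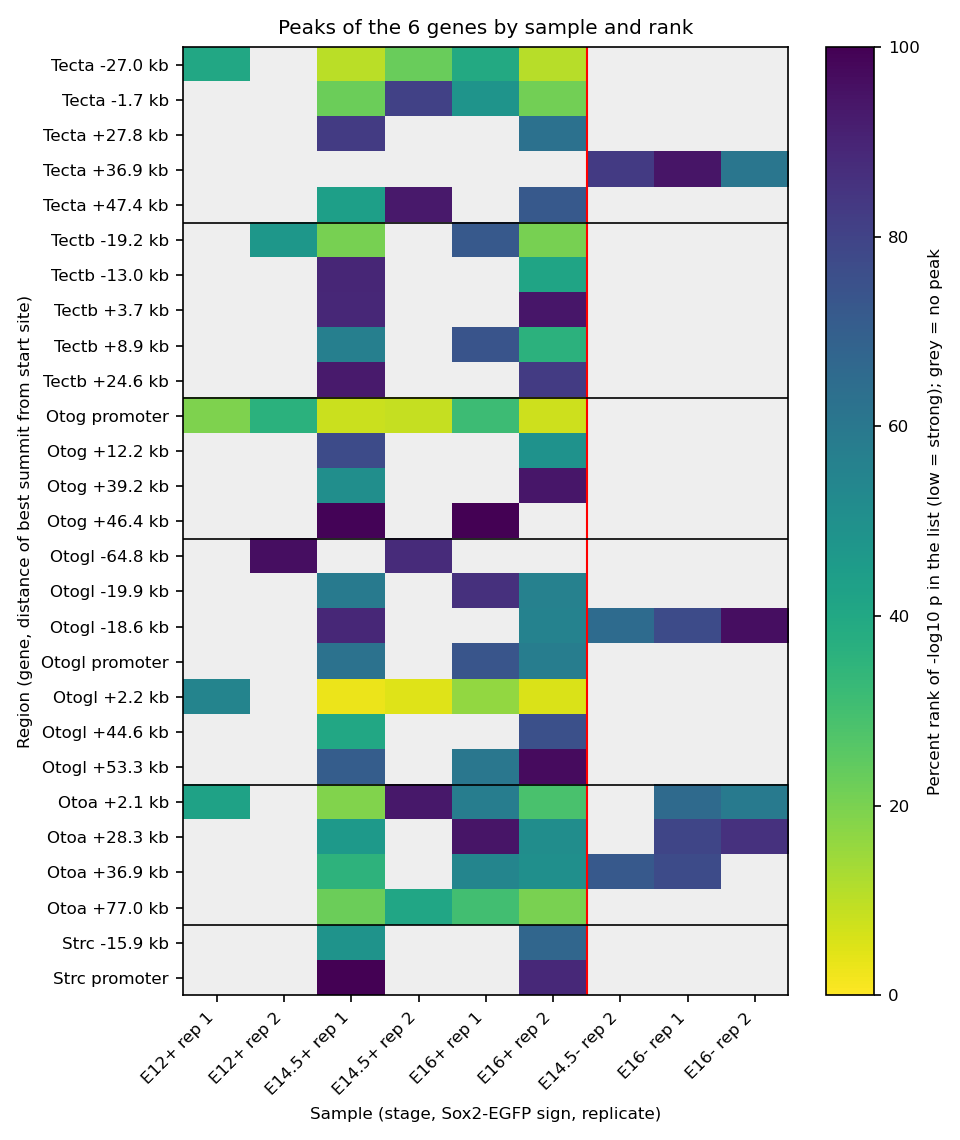
Percent rank of the -log10 p of each peak within its list (colour, 0 to 100, low for the strongest peaks) for the 27 regions (rows, named by gene and distance from a start site) in the 9 samples (columns, with Sox2-EGFP- samples right of the red line); grey means no peak. The Otogl region 2.2 kb downstream is at 3.04 to 16.3 in the E14.5 and E16 Sox2-EGFP+ samples.

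Tecta encodes alpha-tectorin, the main non-collagenous glycoprotein of the tectorial membrane. It lies on the minus strand of chromosome 9 (chr9:42137705-42208012) and had 5 regions, 4 with Sox2-EGFP+ peaks alone and 1 with Sox2-EGFP- peaks alone. None lay within its promoter as annotated in GENCODE. The region with peaks in the most samples, 27.0 kb upstream in an intron of the neighbouring gene Tbcel (chr9:42234630-42235434), had a peak in 5 of 6 Sox2-EGFP+ samples. Its percent rank, the place of the peak in its list by -log10 p as a percentage of list length, was 40.2 in E12 replicate 1, 10.3 and 22.7 at E14.5 and 39.2 and 10.9 at E16. Percent ranks depend on list length and were not compared between lists by a test. The fold enrichment over local background in these peaks was 6.32, 11.8, 5.33, 6.62 and 9.5. E12 replicate 2, the shortest list, had no peak there.

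A second Tecta region lay 1.7 kb upstream of the nearer GENCODE start site, in intergenic sequence (chr9:42209162-42209989), and had a peak in all 4 E14.5 and E16 Sox2-EGFP+ samples. Its percent ranks were 22.6 and 80.6 at E14.5 and 48.3 and 21.3 at E16. RefSeq lists 2 Tecta promoters, and the sequence of the farther one matched mm9 once on chromosome 9, which puts a start site at position 42209773, inside this region and 22 bp from its best summit. By that start site, 1761 bp from the nearest GENCODE start, the region lies over a promoter of Tecta. The other RefSeq start site lay 18 bp from a GENCODE start and had no region over it. The 200 bases before the farther start site, chr9:42209774-42209973 on the plus strand, are shown because a peak covers them and Tecta reads leftward from there; the region was chosen for this after its values were seen.
Tecta, before the farther RefSeq start: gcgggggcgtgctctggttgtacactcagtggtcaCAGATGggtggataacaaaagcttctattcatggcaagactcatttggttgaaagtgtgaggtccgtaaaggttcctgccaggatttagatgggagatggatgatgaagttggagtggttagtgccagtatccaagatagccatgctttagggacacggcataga

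The region of Tecta with Sox2-EGFP- peaks alone lay in an intron of Tecta, 36.9 kb downstream of a start site (chr9:42170431-42171179). All 3 Sox2-EGFP- samples had a peak, at percent ranks of 82.9 at E14.5 and 94.2 and 60.6 at E16, with fold enrichments of 3.69, 4.26 and 5.45. These are low places in their lists. The remaining 2 regions, in introns of Tecta, had peaks in 2 and 3 Sox2-EGFP+ samples, with best percent ranks of 62.6 and 43.6.

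Tectb encodes beta-tectorin, which forms the striated sheet together with alpha-tectorin. On the plus strand of chromosome 19 (chr19:55255223-55270803), it had 5 regions, all with Sox2-EGFP+ peaks alone and none over a promoter. The region 19.2 kb upstream, in intergenic sequence (chr19:55235429-55236335), had peaks in E12 replicate 2, E14.5 replicate 1 and both E16 replicates, at percent ranks of 46.9, 20.4, 71.9 and 20.6. E12 replicate 1 and E14.5 replicate 2 had none, so replicates disagreed at both stages. Of the other 4 regions, 3 came solely from the longest lists, E14.5 replicate 1 and E16 replicate 2, with best percent ranks from 41.6 to 88.8; the remaining one, which E16 replicate 1 also held, had 35.7. The exact test called none of the 5 regions, with p = 0.143 for the region 19.2 kb upstream.

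Otog encodes otogelin. Its promoter region (chr7:53495973-53496513, best summit 149 bp upstream of the start site) was the single region of the 27 found in each of the 6 Sox2-EGFP+ lists, and no Sox2-EGFP- list held it. Percent ranks were 19.2 and 36.3 at E12, 7.82 and 8.86 at E14.5 and 31.6 and 7.63 at E16. Fold enrichments lay between 5.06 and 7.54, with values of 5.61 and 5.06 at E12. The peak was thus among the upper 10% of the list in 3 of 4 E14.5 and E16 samples, the exception being E16 replicate 1. The other 3 Otog regions lay within the gene, 12.2 to 46.4 kb downstream, each in 2 samples of the later stages, with best percent ranks from 48.9 to 98.9.

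Otogl encodes otogelin-like, a paralogue of otogelin, and had 7 regions, the most of the 6 genes. The strongest was in an intron 2.2 kb downstream of the start site (chr10:107346692-107347302), with peaks in 5 of 6 Sox2-EGFP+ samples; the Sox2-EGFP- lists held none. Percent ranks were 54.7 in E12 replicate 1, 3.04 and 4.75 at E14.5 and 16.3 and 5.65 at E16, with fold enrichments of 5.88, 11.1, 7.59, 8.83 and 9.32. It held the best placed peak of the 6 genes in each of the 4 E14.5 and E16 Sox2-EGFP+ lists, such as place 1091 of 22962 in E14.5 replicate 2. The Otogl promoter itself (chr10:107349114-107349567) ranked lower, with peaks in E14.5 replicate 1 and both E16 Sox2-EGFP+ replicates at 62.3, 73.6 and 57.7.

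Another Otogl region, 18.6 kb upstream in intergenic sequence (chr10:107367572-107368019), had peaks in all 3 Sox2-EGFP- samples, at percent ranks of 65.1, 77.3 and 96.4, and in E14.5 replicate 1 and E16 replicate 2 of Sox2-EGFP+ cells, at 89.0 and 55.5. The cell types overlapped there (exact p = 0.429). Next to it, 19.9 kb upstream, a region had 3 Sox2-EGFP+ peaks and no Sox2-EGFP- peak. This region and 3 more Otogl regions had best percent ranks from 40.1 to 87.6.

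Otoa encodes otoancorin. On the plus strand of chromosome 7 (chr7:128226836-128306611), it had 4 regions, and 3 of them had peaks of both cell types; the other 5 genes together had 1 such region. The region 2.1 kb downstream, in an intron (chr7:128228522-128229465), had a peak in 7 of 9 samples, the most of any of the 27. Percent ranks were 42.5 in E12 replicate 1, 18.8 and 93.6 at E14.5 and 57.8 and 28.7 at E16 in Sox2-EGFP+ cells, and 65.4 and 59.0 in E16 Sox2-EGFP- cells. The E14.5 Sox2-EGFP- sample had no peak there.

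Further into Otoa, the intronic regions 28.3 kb (chr7:128254669-128255602) and 36.9 kb downstream (chr7:128263627-128264010) each had peaks in E14.5 replicate 1 and both E16 Sox2-EGFP+ replicates. The first was also present in both E16 Sox2-EGFP- replicates, at 79.2 and 85.8, and the second in the E14.5 sample and E16 replicate 1, at 72.2 and 77.1. Neither differed by the exact test (p = 1.0 each). The region 77.0 kb downstream lies in a coding exon near the end of the gene (chr7:128303704-128304146) and had a peak in all 4 E14.5 and E16 Sox2-EGFP+ samples and no other. Its percent ranks were 22.3 and 40.7 at E14.5 and 30.2 and 20.3 at E16, and its highest fold enrichment, 13.8 in E14.5 replicate 1, was the highest of any peak of the 6 genes.

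Strc encodes stereocilin and had the fewest regions, 2, both found in the longest Sox2-EGFP+ lists (E14.5 replicate 1, E16 replicate 2) and nowhere else. The region over its promoter (chr2:121206539-121206805, best summit 34 bp upstream of the start site) was at percent ranks of 99.7 and 88.6, near the end of both lists. The region 15.9 kb upstream, in an intron of Catsper2 (chr2:121222357-121222739), was at 48.8 and 67.0. No E12 sample and no Sox2-EGFP- sample had a peak nearest to Strc.

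**Figure D4:**
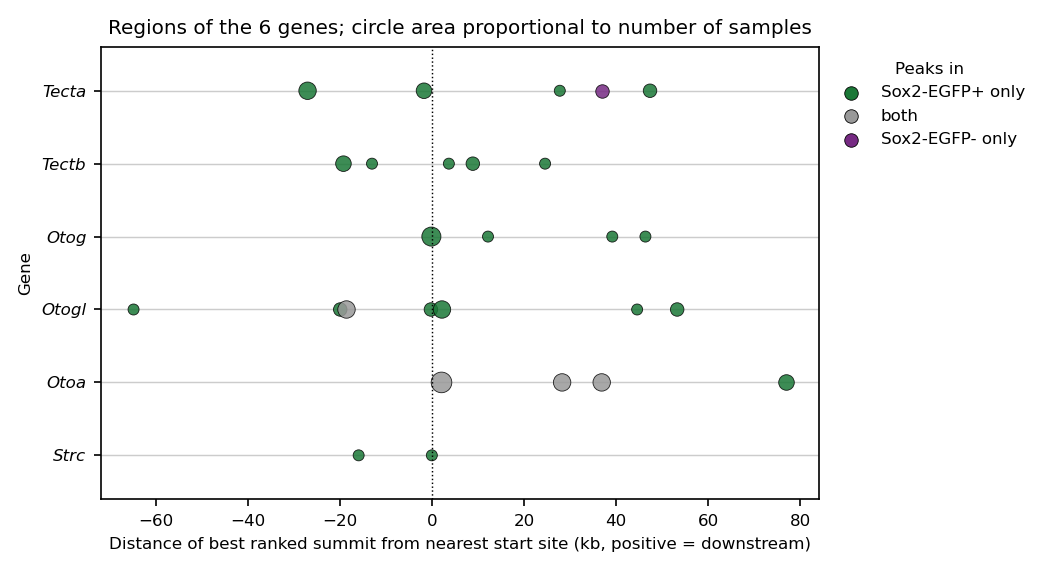
Distance of the best ranked summit of each of the 27 regions from the nearest start site (kb, x axis, positive downstream) for the 6 genes (y axis); circle area is proportional to the number of samples with a peak, from 2 to 7, and colour gives the cell types. Sox2-EGFP+ regions lie on both sides of the start sites of Tecta, Tectb and Otogl, and Otoa has regions downstream alone, out to 77.0 kb.

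Stages were compared as a description. An E12 peak was found in 6 of the 27 regions (22.2%), against 20.1% of all regions, and in just 1 of them, the Otog promoter, in both E12 replicates. The others were the Tecta region 27.0 kb upstream, the Tectb region 19.2 kb upstream, the Otogl regions 2.2 kb downstream and 64.8 kb upstream and the Otoa region 2.1 kb downstream. Regions held by none but the longest lists, E14.5 replicate 1 and E16 replicate 2, numbered 9 (33.3%), against 35.4% of all regions. With 2 samples a stage and E12 lists of the shortest lengths, stage and list length cannot be told apart; 2 against 4 samples allow no exact p below 0.0667.

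Position and sequence were described next. The 27 regions were 267 to 944 bp wide, with a median of 518 bp against 577 bp over all regions, and 15 had their best summit in an intron and 6 in intergenic sequence. A protein-coding gene had a median of 2 regions; Otogl, Tecta and Tectb had more than 86.9%, 78.7% and 78.7% of protein-coding genes, Otog and Otoa more than 71.8%, and Strc more than 46.1%. Over the genome 64.2% of protein-coding genes had a region over a promoter, and 3 of the 6 genes did. In the 300 bases around the first start site (250 before and 50 after), the ratio of observed to expected CpG was 0.213 in Tecta, 0.235 in Tectb, 0.0 in Otog, 0.249 in Otogl, 0.095 in Otoa and 0.251 in Strc. All 6 values lay under the median of 0.542 over 22373 genes, and Otog had no CpG there.

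Motif letters were searched on both strands of the window that reaches 100 bp to each side of the best ranked summit of each region; a match describes the letters and is no evidence of binding. The SOX letters CATTGT were found in 5 of 27 windows (18.5%) against 13.3% of all windows, the E-box letters CAGCTG in 5 (18.5%) against 16.6% and CAGATG in 4 (14.8%) against 14.7%. The EBF letters CCCNNGGGA were found in 4 (14.8%) against 6.78%, the TEAD letters GGAATG in 2 (7.41%) against 13.0%, and the GATA letters AGATAA in 2 (7.41%) against 8.33%. The stretch in capitals in the Otog promoter matches the EBF letters on both strands, that in the Otoa region the SOX letters, and those in the Otogl sequence 2.2 kb downstream and the Tecta sequence before the farther RefSeq start the E-box letters CAGATG. The window of the Strc promoter also held a match to the SOX letters, which the shortened stretch printed above does not hold whole. No stretch of 100 bp or more at 90% identity or above elsewhere in mm9 was found for any of the 27 regions.

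Genes with the most similar pattern were sought by the number of nearest peaks in each of the 9 lists. The smallest sum of differences was 1 for Tecta, shared by 14 genes, and 1 for Tectb, shared by 5; it was 0 for Otogl and Strc, shared by 4 and 165 genes, and 2 for Otoa, shared by 5 genes.

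Among 15 other genes of cochlear and vestibular matrices, 81 regions were found. Of these, 61 (75.3%) had Sox2-EGFP+ peaks alone, 14 both and 6 Sox2-EGFP- peaks alone, against 65.5%, 28.8% and 5.63% of all regions. Away from promoters, 78.7% of all regions had Sox2-EGFP+ peaks alone, and the 81 regions were not divided by promoter. By the exact test at an unadjusted p under 0.05, 15 of the 81 (18.5%) had more Sox2-EGFP+ samples. This compares with 7.33% of all regions and 8.41% of those away from promoters. In the other direction, 2 (2.47%) had more Sox2-EGFP- samples, against 2.34% of all regions. Otol1, which encodes an otoconial scaffold protein, had 11 regions, all with Sox2-EGFP+ peaks alone. The test called 5 of them, against 7.33% of all regions and 8.41% of those away from promoters. Otos had 8 regions and Oc90 had 4, likewise all with Sox2-EGFP+ peaks alone. The fibrillar collagen gene Col2a1 had 8 regions, 5 with Sox2-EGFP+ peaks alone, 2 with both and 1 with Sox2-EGFP- peaks alone, and Coch had 4, in order 1, 1 and 2. Epyc had no region.

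Marker genes of the cell types that the sort could hold were examined at their promoters. The study's dissection was meant to remove spiral ganglion neurons and their glia, and most of the mesenchyme. Over the genome, 63.9% of protein-coding genes had a promoter peak in at least 1 Sox2-EGFP+ sample and 57.4% in at least 1 Sox2-EGFP- sample. Of 8 prosensory genes, 8 had a promoter peak in at least 1 Sox2-EGFP+ sample and 7 in at least 1 Sox2-EGFP- sample; of 3 epithelial genes, 3 and 1 did, and of 4 otic mesenchyme genes, 3 and 4. All 4 otic mesenchyme genes had promoter peaks in each of the 3 Sox2-EGFP- samples, whereas in Sox2-EGFP+ samples 1 and 0 of 4 did at E12, 3 and 1 at E14.5 and 3 and 2 at E16. Of their 20 regions, 3 (15.0%) had Sox2-EGFP+ peaks alone, against 65.5% of all regions, and 9 Sox2-EGFP- peaks alone, against 5.63%, whereas of 124 prosensory regions 99 (79.8%) had Sox2-EGFP+ peaks alone. In the other lists these numbered 21 of 30 for epithelial genes, 5 of 5 for macrophage, 20 of 27 (74.1%) for endothelial, 7 of 9 (77.8%) for glial, 14 of 17 (82.4%) for melanocyte and 6 of 10 for neuronal genes, so a share near that of the 6 genes (81.5%) was also found for cell types other than prosensory ones. Of the 4 macrophage genes listed, Spi1 was not found in the annotation under that symbol, and the other 3 had no promoter peak in any sample. Promoter peaks of endothelial genes came from 1 of 4 in Sox2-EGFP+ cells and 1 of 4 in Sox2-EGFP- cells, of glial genes from 2 and 1 of 3, of melanocyte genes from 2 and 1 of 3 (the 1 being Pmel, where the peaks over the promoter were nearest to a start site of another gene), and of neuronal genes from 3 and 2 of 3. The Sox2-EGFP- samples carried open promoters of mesenchymal genes and of Epcam and lacked those of Cdh1 and Grhl2. Whether a difference in cell makeup lay behind this, or had a part in the counts for the 6 genes, was not tested. Open chromatin at a gene in few cells cannot be told apart here from weaker opening in many.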

How the data were processed

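ATAC-seq peak lists of 9 samples were used, with groups taken from the sample titles. According to the study's methods and the submitters' processing notes, the authors used Trim Galore for adapters, Bowtie2 for alignment (mm9), and Picard and SAMtools to take out duplicate and mitochondrial reads. Peaks were called per sample with MACS2, and those that no further sample of the cell type showed were removed. Tool versions are not given in the sources used here. MACS2 was run without a model, with the fragment ends shifted and extended, a setting that centres signal on the insertion site. The deposited files give for each peak a score (column 5), the fold enrichment ratio (column 7), the -log10 p and -log10 q (columns 8 and 9) and the summit offset (column 10). The lists hold no reads, and the study's table of reads per sample was not used, so no interval on counts is given and the study's read-based test was not possible; replicates were compared by presence and rank of peaks called sample by sample.

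Peaks within 100 bp were merged (overlap of at least 1 bp for presence), and no peak ran past the end of its chromosome in the reference. The 7 chromosome names without a reference sequence held 296 peaks. Fisher's exact test was two-sided with Benjamini-Hochberg adjustment. Regions named were those over a promoter, with 4 or more Sox2-EGFP+ samples, with any Sox2-EGFP- peak, or with the most samples of a gene (14 regions); the other 13 are given by counts and ranges, except that the Otogl regions 19.9 kb and 64.8 kb upstream were named after their values were seen. The sequence windows reached up to 100 bp to each side of a summit and were kept off untranslated exons. RefSeq promoters (build GRCm38.p6) were matched letter for letter to mm9; Otogl was not in that table. Motif windows were read for 69357 regions. The genes most like Otog by peak number and 1 of the motifs searched are not reported here. The members and lists were chosen with earlier results of these data known. The replicate numbers pair samples at E16, where the study describes collecting both cell types together and gives both replicates 1 a sequencing batch of their own; for E14.5 it does not say which sample was so collected. The difference between E16 replicates 1 and 2 in one cell type correlated with that in the other at 0.033 over 69415 regions, a description with no p. Alternatives changed peak threshold, list length, merging, overlap, annotation, reference point, samples, batch and pairing. Merging, nearest start sites and tests were tested on simulated data. Tools were Python 3.11.15, NumPy 2.4.6, pandas 2.3.3, SciPy 1.17.1, matplotlib 3.10.9, bedtools 2.31.1 and blastn 2.17.0.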

Additional observations from a re-analysis of the deposited data

How the results depend on the processing

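The count of 27 regions ran from 24 to 28 over the alternatives of peak threshold, merging, overlap, annotation, reference point, single left-out samples and batch, and the 22 regions with Sox2-EGFP+ peaks alone from 19 to 23. Leaving out 1 sample at a time gave 27 to 28 and 22 to 23. With lists of equal length the counts were 6 and 6, since fewer peaks entered. With both longest lists left out together, an alternative chosen after seeing the data, 18 and 13 regions were left, and 47.5% of all regions then had Sox2-EGFP+ peaks alone against 72.2% for the 6 genes.

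The 5 regions of the exact test, beside 7.33% of all regions, became 4 with a -log10 q of at least 5 (beside 4.2%) or with all GENCODE transcripts (beside 7.33%), 1 with equal list lengths (beside 2.2%) and 3 with all 9 samples (beside 2.74%), and were 0 to 5 with 1 sample left out: 5 without either E12 sample, which the test does not use, and 0 without E14.5 Sox2-EGFP+ replicate 1 or 2, E14.5 Sox2-EGFP- replicate 2, E16 Sox2-EGFP+ replicate 1 or 2, or E16 Sox2-EGFP- replicate 1 or 2. The count was 0 in batch 2 alone, without both longest lists and under the replicate block. In these settings with 0, the samples left allow no p under 0.05 (smallest exact p 0.0667 to 0.25), so they say nothing about stability, nor does leaving out an E12 sample. The replicate block joins 3 pairs, 2 of them at E16, and for the E14.5 pair the study states nothing beyond the number. Batch 1 held 1 sample of each cell type, both E16, which is too few for a value of its own. Depth was not used, and no cause of the difference in list length was tested: no peak in a short list does not show closed chromatin.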
